A study of Mus musculus with 4 samples.

Results

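The strain difference in the intestinal mucosa on a low-fat diet was read from 2 of the 4 arrays of the series, the A/J and the C57BL/6J low-fat arrays. A/J and C57BL/6J are inbred mouse strains, the first known to resist and the second known to be prone to obesity on fat-rich food. The mice were male and 10 weeks old and had been fed the low-fat diet for 2 weeks. Each group held 6 mice, of which 2 with average body weights gave the pooled RNA for 1 Affymetrix array, the Mouse Expression Array 430A. The other pair of arrays came from the same strains, age and sex after 2 weeks on a high-fat diet, and served as a check in other pools. The labels name no altered gene and no treatment other than diet in any group.

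The intestinal mucosa is a sheet of absorptive enterocytes with scattered goblet, Paneth, enteroendocrine and tuft cells, over a layer of immune, stromal and vascular cells. Enterocytes take up fatty acids, sterols, carotenoids, sugars and peptides at the brush border, re-esterify or oxidise the lipids and neutralise foreign compounds. The epithelium also shows antigen on MHC molecules, makes antimicrobial lectins, and houses intraepithelial lymphocytes whose cytokines, with those of other cells, drive interferon-induced genes. In RNA from whole mucosa, fewer cells of a type and less RNA per cell cannot be told apart.

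Each array was scaled to a trimmed mean of 500, signals below 100 were raised to that floor, and a ratio is A/J over C57BL/6J throughout. Values in pairs are scaled signals, A/J against C57BL/6J, and a ratio with 1 side at the floor is a bound, written as at least that many fold. With 1 array a group there was no replicate error and no test, so precision is limited by the number of arrays. Of 12393 genes, 8036 had a mean scaled signal of at least 100 over the 4 arrays and are called measured. On low-fat, 241 of these (3.0%) passed 2-fold upward, that is in A/J over C57BL/6J, and 212 (2.64%) passed it downward. At 1.5-fold the counts were 874 (10.9%) higher and 742 (9.23%) lower, and 6420 genes (79.9%) lay between. On high-fat the shares at 1.5-fold were 8.37% higher and 6.88% lower. These shares are the background for every list count at 1.5-fold given below. The all-gene median log2 ratio was 0.02, with quartiles of -0.27 and 0.31. Of the 2-fold genes, 37 higher and 34 lower ones were bounds. Without scaling, the all-gene median was 0.20 and the split was 396 higher to 154 lower, so that 72.0% of the 2-fold genes were higher in A/J, against 53.2% with scaling. Pearson's r between the arrays was 0.968 over log2 signals of probe sets, which are not independent replicates. Control signals also differed: the 18S ribosomal RNA probe sets read 218, 214 and 96.8 in A/J against 11010, 5012 and 601 in C57BL/6J (5′ end, 3′ end and middle). On high-fat they read 84.4, 182 and 23.3 against 1675, 398 and 187, so the C57BL/6J low-fat array was the highest of the 4 on each. The control CreX-3 read 12094 against 19458 on low-fat and 11988 against 21250 on high-fat, and BioC-5 821 against 1201 and 608 against 1614. The beta-actin set of the 3′ end read 24165 against 26405 on low-fat. The part of these differences in the results was not tested.

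**Figure D1:**
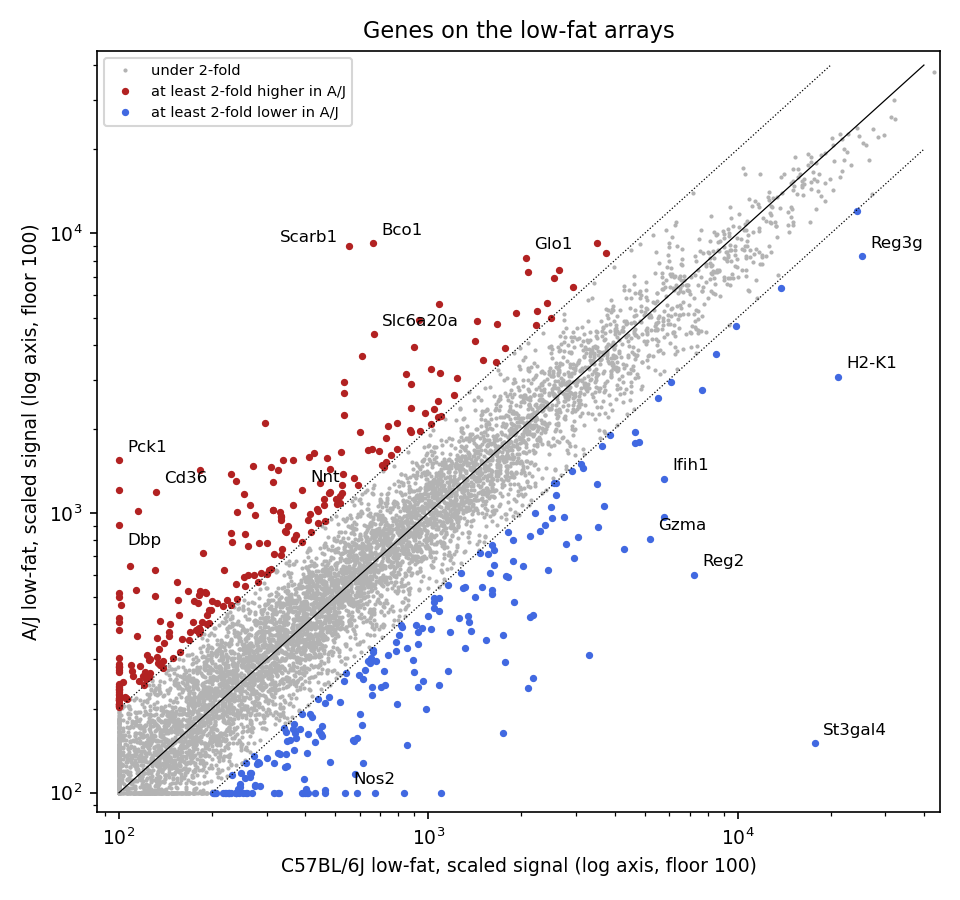
Scaled signal of 8036 measured genes on the A/J low-fat array (vertical, log axis) against the C57BL/6J low-fat array (horizontal, log axis), with 1 pool of RNA on each and values under 100 drawn at 100. The solid line is equality and the dotted lines are 2-fold, with 241 genes above (red) and 212 below (blue), St3gal4 the farthest from equality.

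The arrays were first set against genes known to differ between the strains and against the labelled tissue. Glo1, glyoxalase 1, which is known to lie in a duplicated segment in A/J, was 3.97-fold higher in A/J (8183 against 2063 on low-fat and 9214 against 2375 on high-fat), and its other probe sets gave log2 ratios of 2.36 and 2.28 beside 1.99. Nnt, the mitochondrial transhydrogenase in which C57BL/6J is known to carry a deletion, was 3.08-fold higher in A/J (1206 against 392 on low-fat and 1176 against 507 on high-fat). Where its probes lie relative to the deletion is not given in the sources at hand, so the signal left in C57BL/6J checks nothing further. Naip5, a flagellin receptor with a known A/J variant, read 637 against 1185 on low-fat and 1041 against 1074 on high-fat, and the aryl hydrocarbon receptor gene Ahr read 487 against 369 on low-fat and 392 against 402 on high-fat. H2-Ea, Hc and Dysf, 3 further genes with known variants, did not reach the level called measured.

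The labelled tissue was set against the epithelial list, whose 18 measured members summed to 181890.0 in A/J and 185430.0 in C57BL/6J. Its median log2 ratio was -0.08, and it turned to 0.07 with quantile normalization and 0.10 without scaling. Villin, Vil1, the actin bundler of the brush border, read 12411 against 12909, and the fatty acid binding protein gene Fabp2 read 22001 against 20128. The labels give no segment of the gut. Markers of the proximal small intestine summed to 101380.0 and 99582 over 15 genes, with a median of -0.03, or 0.08 and 0.15 in those settings. Of the defining ileal genes, the bile acid carrier Slc10a2 read 7.07 against 7.38, its binding protein gene Fabp6 5.44 against 1.54 and the hormone gene Fgf15 5.44 against 8.30, all under the floor. Other genes of the distal list were well above it: Slc51a, a bile acid exporter subunit, read 3472 against 4911, and the 6 measured members had a median of 0.06, which turned to -0.00 with quantile normalization, with 2 at least 1.5-fold higher and 1 lower. The colonic genes Car1, Aqp8 and Hoxb13 were under the floor on both arrays. The 7 measured members of the colon list had a median of 0.22, with 3 higher and 1 lower, and included the chloride exchanger gene Slc26a3 (2525 against 1681) and Mptx1 (1176 against 476). Sums of exocrine pancreas enzymes were alike on the low-fat arrays, at 125570.0 and 130020.0, but not on the high-fat arrays, at 13963 and 197840.0. Stomach markers summed to 5045 and 3096 on low-fat.

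Scarb1, Bco1 and Cd36, which serve the uptake or cleavage of carotenoids and lipids, held the 3 highest ratios among genes with both signals above the floor. Their list, uptake of sterols and carotenoids, had a median log2 ratio of only 0.28 over 9 measured members. In it 3 members passed 1.5-fold upward in A/J and 2 downward. Scarb1, the brush border receptor for lipoproteins, sterols and carotenoids, read 9018 against 554 on low-fat and 3553 against 863 on high-fat. Bco1, the oxygenase that splits beta-carotene into retinal, read 9248 against 662 on low-fat and 1995 against 218 on high-fat. The fatty acid translocase gene Cd36 read 1193 against 131 on low-fat and 2891 against 364 on high-fat. For each of these 3 genes the A/J array was the higher one on both diets. Scarb1 and Bco1 were higher on the low-fat than on the high-fat array of A/J, whereas Cd36 was higher on high-fat in both strains. Bco2, the mitochondrial oxygenase that cleaves carotenoids off centre, differed the other way, at 801 against 1873 on low-fat and 569 against 1824 on high-fat, 2.34-fold lower in A/J on low-fat. The sterol exporters Abcg5 and Abcg8 differed by less than 1.5-fold, with log2 ratios of 0.02 and 0.49, and Abca1, which loads cholesterol onto lipoproteins, was 1.65-fold lower in A/J.

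Of 15 measured genes of retinoid handling, 9 passed 1.5-fold upward in A/J and 0 downward, with a median log2 ratio of 0.72 beside 0.02 over all genes. Lrat, which esterifies retinol for chylomicrons, read 624 against 131 on low-fat and 516 against 200.2 on high-fat. Retsat, a saturase that makes dihydroretinol, was 2.92-fold higher (4121 against 1411 on low-fat and 6521 against 2651 on high-fat), and its other probe set gave 1.18 beside 1.55. These esterifying and saturating enzymes were higher in A/J on both diets. The retinal dehydrogenase gene Aldh1a1, which makes retinoic acid, was 3.20-fold higher (3277 against 1023 on low-fat and 6206 against 3424 on high-fat), and its neighbour Aldh1a7 was 2.10-fold higher. The retinol dehydrogenase gene Rdh16 was at least 2.88-fold higher, since C57BL/6J read 53.8. Rbp2, the cellular retinol binding protein of enterocytes, was 1.65-fold higher from high signals (17105 against 10382). With the C57BL/6J high-fat array in place of the low-fat one, Aldh1a1 and Aldh1a7 gave -0.06 and -0.75, as the C57BL/6J signals of both genes were higher on high-fat than on low-fat. The list's median was then 0.28, and 0.42 between the high-fat arrays.

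Part of the genes of fatty acid oxidation had higher signals in A/J on low-fat, while oxidation itself was not measured. In mitochondria, 6 of 21 measured beta-oxidation genes passed 1.5-fold upward and 0 downward, beside 10.9% and 9.23% of all genes. Their median log2 ratio was 0.31. Acadl, the long-chain acyl-CoA dehydrogenase, was 2.86-fold higher (4742 against 1661 on low-fat and 7280.2 against 3973 on high-fat), and the thiolase gene Acaa2 was 2.69-fold higher (5179 against 1922 on low-fat and 6905 against 3948 on high-fat). Crat, carnitine acetyltransferase, was 2.12-fold higher, and Cpt1a, which commits fatty acids to the mitochondrion, was 1.79-fold higher (1726 against 966 on low-fat and 3039 against 1764 on high-fat). Bbox1, which carries out the last step of carnitine synthesis, read 1478 against 272 on low-fat and 2677 against 885 on high-fat, so it was 5.44-fold higher in A/J. In peroxisomes, 8 of 20 genes passed 1.5-fold upward and 0 downward, with a median of 0.39. Among them were the branched-chain acyl-CoA oxidase gene Acox2 (273 against 109.8), the thiolase gene Acaa1b (2212 against 1074) and catalase, Cat (3482 against 1658). Cat's other probe set gave a log2 ratio of 2.03 beside 1.07.

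Targets of PPAR-alpha, the nuclear receptor that fatty acids activate, overlap these lists. Of 21 measured targets, 8 were at least 1.5-fold higher and 1, the pantetheinase gene Vnn1 (1358 against 2159), lower. Pdk4, the kinase that spares pyruvate, was at least 4.09-fold higher, from 409 against 67.3. Aqp3, a glycerol and water channel, was at least 4.20-fold higher, from 419.7 against 35.1. Slc27a2, which activates very long-chain fatty acids, was 2.91-fold higher (3172 against 1090.5 on low-fat and 5255 against 2829 on high-fat). The gene of the receptor itself, Ppara, read 387 against 203 on low-fat and 541 against 293 on high-fat and was 1.91-fold higher on low-fat. Pdk4, Aqp3, Slc27a2 and Ppara had higher signals on the high-fat than on the low-fat array of each strain. Against the C57BL/6J high-fat array the medians were -0.18 for PPAR-alpha targets, 0.02 for mitochondrial and 0.06 for peroxisomal oxidation. Between the high-fat arrays they were 0.45, 0.34 and 0.39. Triglyceride synthesis and chylomicron assembly, by contrast, had a median of 0.06 over 23 genes, with 2 higher by 1.5-fold, Dgat2 (8708 against 4503) and Mgll (388 against 181), and 0 lower. The citric acid cycle list had a median of 0.04 over 19 genes, and only Idh1 passed 1.5-fold (4719 against 2233).

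**Figure D2:**
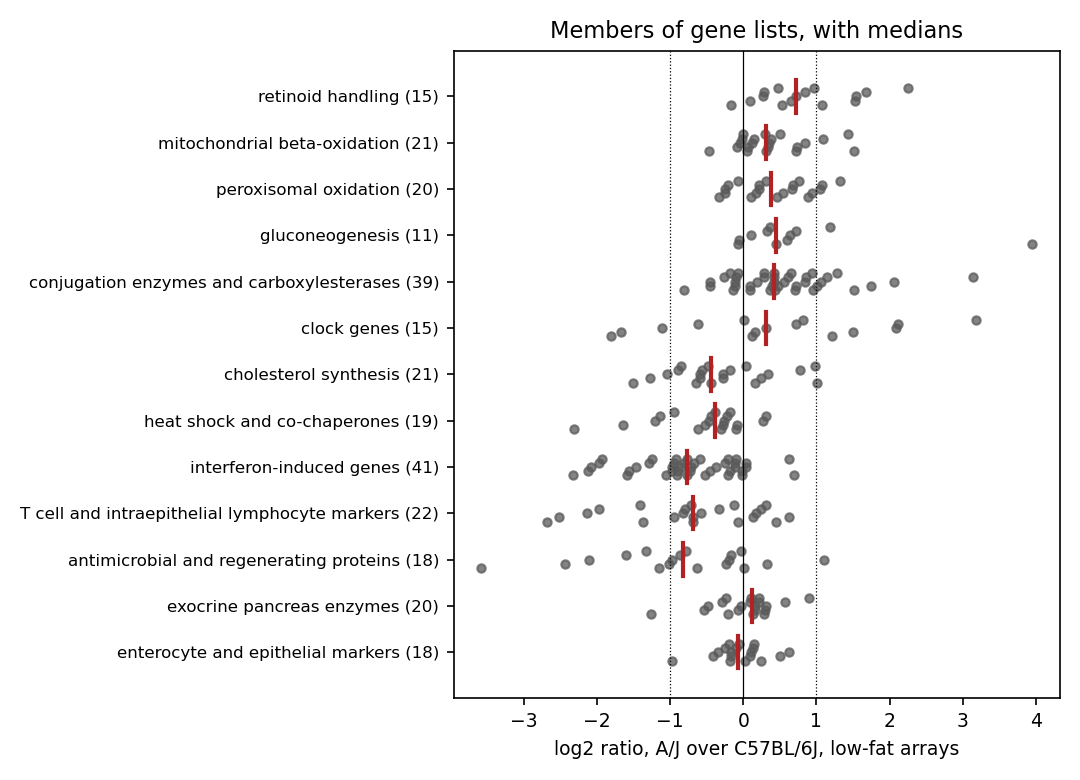
Log2 ratio of A/J over C57BL/6J on the low-fat arrays (horizontal) for the measured members of 13 gene lists (rows, number of members in brackets), each point 1 gene and each red bar the median. Medians run from -0.83 for antimicrobial and regenerating proteins to 0.72 for retinoid handling, and dotted lines mark 2-fold.

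Part of the gluconeogenic enzymes were also higher in A/J, with 5 of 11 measured genes at least 1.5-fold higher, 0 lower and a median of 0.45. On high-fat, 2 were higher and 0 lower, with a median of 0.26. Pck1, the cytosolic phosphoenolpyruvate carboxykinase, read 1545 against 28.3 on low-fat and 1361 against 99.6 on high-fat, so the C57BL/6J low-fat array was below the floor and A/J far above it. Fbp1, fructose bisphosphatase, was 2.28-fold higher (8540.3 against 3747 on low-fat and 5473 against 3075 on high-fat). G6pc, which releases glucose from its phosphate, was 1.65-fold higher on low-fat (3274 against 1985 on low-fat and 1315 against 1126 on high-fat) and 1.17-fold higher on high-fat. Hexokinase 2, Hk2, which starts glucose breakdown, was 3.86-fold lower in A/J (239 against 924 on low-fat and 319 against 595 on high-fat). Of the other sugar genes, the fructose carrier Slc2a5 (6929 against 2554) and lactase, Lct (16252 against 10549), passed 1.5-fold upward. The median of that list was 0.02 over 13 genes. Over all genes 10.9% passed 1.5-fold upward, so 2 such members say little of the sugar list.

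Single genes of brush border carriers, receptors and peptidases were higher in A/J. Slc6a20a, a sodium-coupled proline and imino acid transporter, was 6.58-fold higher in A/J (4374 against 665 on low-fat and 4728 against 1475 on high-fat). Slc13a2, the sodium-coupled carrier of citrate and other dicarboxylates, was 5.25-fold higher (4907 against 935 on low-fat and 2553 against 786 on high-fat). Slc5a4a and Slc5a4b, adjacent genes of the SGLT3 family of sodium-coupled glucose sensors, read 2243 against 534 and 1376 against 229.7. Such close copies can share probes. Cubn, cubilin, which with amnionless takes up the complex of intrinsic factor and vitamin B12, was 4.35-fold higher (3921 against 901 on low-fat and 2595 against 887 on high-fat), and its other probe set gave 1.75 beside 2.12. Amn, amnionless, read 4312 against 2660.0. The peptidase list held 4 of 12 genes past 1.5-fold upward and 0 downward: Xpnpep2, which removes residues before proline, was 3.58-fold higher (985 against 276 on low-fat and 936 against 199.5 on high-fat), and Ace, the angiotensin-converting enzyme, was 2.34-fold higher (5641 against 2414 on low-fat and 3708 against 3149 on high-fat). The median of amino acid and peptide transporters, a list that holds Slc6a20a, was -0.11 over 10 genes and turned to 0.07 without scaling.

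Part of the enzymes that neutralise foreign compounds were higher in A/J. Of 39 measured conjugating enzymes and carboxylesterases, 16 were at least 1.5-fold higher, beside 10.9% of all genes. In the list 1 gene, Gstm5 (345 against 602), was that much lower, and the median log2 ratio was 0.42. On high-fat 10 were higher and 0 lower, with a median of 0.19. Akr1c14, a 3-alpha-hydroxysteroid dehydrogenase, was 8.86-fold higher (1019 against 115 on low-fat and 638 against 221 on high-fat), and its neighbour Akr1c13 was 3.34-fold higher (1573 against 470.5 on low-fat and 1860.3 against 1229.9 on high-fat). The carboxylesterase gene Ces1f was 4.19-fold higher on low-fat (1011 against 241 on low-fat and 2303 against 1520.5 on high-fat) and less far apart on high-fat, at 1.51-fold higher. Epoxide hydrolase 1, Ephx1, was 2.86-fold higher (625 against 219 on low-fat and 589 against 281 on high-fat), and the fatty aldehyde dehydrogenase gene Aldh3a2 was 2.22-fold higher (1942 against 876 on low-fat and 3036 against 1676 on high-fat). The glucuronosyltransferase gene Ugt2b38, of a family of close copies, read 1204 against 92.3 on low-fat and 993 against 206 on high-fat. Among 19 measured cytochromes P450, 7 were at least 1.5-fold higher, with Cyp2j6 (1547 against 339 on low-fat and 1256 against 800.1 on high-fat) and Cyp4f16 (3879.6 against 1774 on low-fat and 7429.6 against 3109 on high-fat) past 2-fold. The 1 lower gene was Cyp1a1, the enzyme induced through the aryl hydrocarbon receptor (56.8 against 586 on low-fat and 54.9 against 206 on high-fat). The list's median was 0.28, and on high-fat it was 0.03, with 4 higher and 3 lower. With the C57BL/6J high-fat array in place of the low-fat one, Ces1f gave -0.59, and the median of the conjugating enzymes was 0.07.

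Some genes of the circadian clock were higher and others lower in A/J. In the clock's loop Arntl pairs with Clock or Npas2 to drive Dbp, Tef, Hlf, the Per genes and Nr1d1 and Nr1d2, whose products then hold Arntl, Npas2 and Nfil3 down. Dbp, a transcription factor of the clock's output, read 909.6 against 32.9 on low-fat and 708 against 49.8 on high-fat, which made it at least 9.10-fold higher on the A/J low-fat array. Its other probe set gave a bound of 3.20 on the log2 scale beside 3.19. Tef, its relative, was 4.24-fold higher (1545 against 364 on low-fat and 937 against 335 on high-fat). Nr1d2 was 4.35-fold higher (1423 against 327 on low-fat and 1324 against 446 on high-fat), Nr1d1 was 2.31-fold higher (1016 against 439.7 on low-fat and 982 against 280.0 on high-fat) and Per3 was at least 2.82-fold higher (282 against 58.7 on low-fat and 163 against 84.2 on high-fat). For these 5 genes both A/J arrays were above both C57BL/6J arrays. Arntl was 3.51-fold lower in A/J (174 against 611 on low-fat and 308 against 653 on high-fat). Npas2 was at least 3.17-fold lower (66.1 against 317 on low-fat and 56.1 against 454 on high-fat), with a bound of -1.88 from its other probe set, and Nfil3 was at least 2.16-fold lower (65.2 against 216 on low-fat and 102 against 348 on high-fat). For these 3 genes both A/J arrays were below both C57BL/6J arrays. Clock differed little, at 306 against 281 on low-fat, and so did Per1, at 161 against 159.6. In all, 5 of 15 measured clock genes passed 2-fold upward and 3 downward, beside 3.0% and 2.64% of all genes. The hour at which each group's tissue was taken is absent from the labels used here, and a difference in hour and one in strain cannot be told apart.

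**Figure D3:**
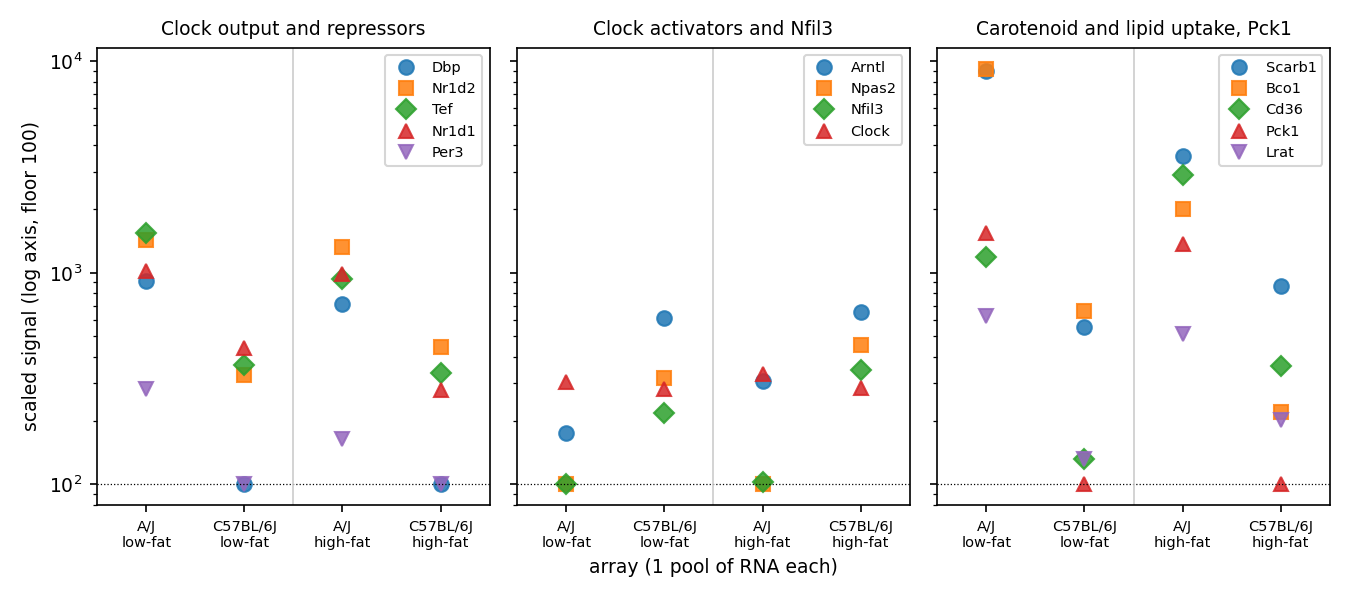
Scaled signal (vertical, log axis, values under 100 drawn at the dotted floor of 100) of 14 genes on the 4 arrays (horizontal, 1 pool of RNA each) in 3 panels: clock output and repressor genes, clock activators with Nfil3, and lipid uptake genes with Pck1. Dbp, Nr1d2, Tef, Nr1d1 and Per3 were higher on both A/J arrays, whereas Arntl, Npas2 and Nfil3 were higher on both C57BL/6J arrays.

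Some genes of cholesterol synthesis were lower in A/J, with 8 of 21 measured genes at least 1.5-fold lower and 3 higher. Over all genes these shares were 9.23% and 10.9%. The list had a median log2 ratio of -0.44. The median was -0.26 without scaling and -0.28 with a floor of 200 or the mean of all probe sets. Sqle, squalene epoxidase, was 2.43-fold lower (543 against 1316 on low-fat and 984 against 1121 on high-fat), and Pmvk, phosphomevalonate kinase, was 2.83-fold lower (151 against 429 on low-fat and 290.1 against 352 on high-fat). Both genes were closer together on high-fat, where the median of the list was -0.12. Members above 1.5-fold the other way were Hsd17b7 (565 against 282), Dhcr7 (929 against 471) and Stard4, a sterol carrier (3003 against 1756). Probe sets of 2 members disagreed: the other set of Sc5d gave 0.60 beside -1.05, and that of Hsd17b7 gave -0.73. The sterol element, written TCACNCCAC, searched on both strands from 250 bases before to 50 after each start in the RefSeq table of GRCm38.p6, lay in 408 of 32851 promoters (1.24%). Among members with a promoter in that table it lay in 1 of 17, Hmgcs1, the synthase at the head of the pathway, whose ratio was -0.49. It is shown as the only match in the list, at chr13:119690189-119690247 on the plus strand with the match in capitals.
Hmgcs1: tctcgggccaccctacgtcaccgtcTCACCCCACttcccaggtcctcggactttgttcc

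Part of the heat shock proteins, which refold proteins, were lower in A/J on both diets. On low-fat, 6 of 19 measured members passed 1.5-fold downward and 0 upward, with a median of -0.39. That median was -0.17 without scaling and -0.41 with quantile normalization. On high-fat 11 members passed 1.5-fold downward and 0 upward, with a median of -0.65. Of all genes on high-fat, 8.37% passed 1.5-fold upward and 6.88% downward. The inducible Hspa1b read 198 against 986 on low-fat and 198 against 1417 on high-fat, with bounds of -2.47 and -2.27 from other probe sets beside -2.31, and its neighbour and near copy Hspa1a read 75.6 against 230.3 on low-fat and 61.4 against 409 on high-fat. The nucleotide exchange factor gene Hsph1 was 3.13-fold lower (645 against 2019 on low-fat and 579 against 2202 on high-fat). The constitutive Hspa8 read 9522 against 10222 on low-fat. Of the unfolded protein response, Herpud1, which serves the degradation of proteins from the endoplasmic reticulum, was 3.27-fold higher in A/J on low-fat (2884 against 881 on low-fat and 1652 against 1898 on high-fat) but 1.15-fold lower on high-fat. Its other probe set gave 0.79 beside 1.71. Trib3, a stress-induced pseudokinase, was 2.34-fold higher (591 against 253 on low-fat and 429.7 against 181 on high-fat). The median of that list was -0.17 over 20 genes and turned to 0.01 without scaling.

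Interferon-induced genes were lower in A/J on low-fat. Of 41 measured members, 25 were at least 1.5-fold lower and 2 higher, beside 9.23% and 10.9% of all genes. By at least 2-fold, 11 members were lower and 0 higher, and the median log2 ratio was -0.77. Ifih1, a sensor of viral RNA, was 4.36-fold lower (1326 against 5779 on low-fat and 1296 against 2936 on high-fat). Zbp1, a sensor of nucleic acids that triggers cell death, was 5.03-fold lower (425 against 2138 on low-fat and 405 against 1059 on high-fat), and its other probe set gave -1.98 beside -2.33. Ifit2, which binds foreign RNA, was 4.24-fold lower (273 against 1157 on low-fat and 59.4 against 229 on high-fat). The chemokine gene Cxcl9 was 3.82-fold lower (207 against 790.3 on low-fat and 287 against 464 on high-fat), the antiviral radical enzyme gene Rsad2 was 2.38-fold lower (1946 against 4639 on low-fat and 2233 against 2361 on high-fat) and the tether of budding virus Bst2 was 2.95-fold lower (238 against 704 on low-fat and 190.3 against 369.7 on high-fat). In each of these 6 genes the C57BL/6J low-fat array held the highest of the 4 signals. Cxcl11 (259.6 against 159.9) and the GTPase gene Irgm2 (1342 against 870.0) were the members at least 1.5-fold higher in A/J. Against the C57BL/6J high-fat array the median was -0.06, and between the high-fat arrays it was -0.31, with 12 genes lower and 1 higher. Summed T cell markers were 6003 and 16773 on low-fat and 7059 and 9909 on high-fat in A/J and C57BL/6J. Gzma, Ccl5 and Gzmb gave 810, 743 and 351 of the A/J and 5190, 4275 and 1542 of the C57BL/6J low-fat sum. By gene, the T cell list had a median of 0.08 on high-fat, with 2 members at least 1.5-fold higher and 2 lower. The part of T cells in the interferon list was not tested.

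The interferon-stimulated response element, written GAAA and GAAA with any 2 bases between them and searched on both strands in the same promoters, lay in 1131 of 32851 (3.44%) and in 4.05% of 6538 measured genes with a promoter in the table. Of 30 measured members of the interferon list with a promoter in the table, 17 (56.7%) held it. The median log2 ratio was -0.53 over these 17 genes and -0.71 over the other 13, with 8 genes at least 1.5-fold lower in each, so the letters did not separate lower members from the rest. Windows around the match are shown for members far apart in ratio, with the match in capitals: Ifih1 (chr2:62646206-62646248, minus strand, log2 ratio -2.12), Gbp2 (chr3:142620579-142620638, plus, -1.98 as a bound), Rsad2 (chr12:26456538-26456597, minus, -1.25), Igtp (chr11:58199497-58199556, plus, -0.95), Irgm2 (chr11:58214888-58214947, plus, 0.63) and Gbp3 (chr3:142559974-142560039, plus, -0.02).
Ifih1: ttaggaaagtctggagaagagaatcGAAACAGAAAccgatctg
Gbp2: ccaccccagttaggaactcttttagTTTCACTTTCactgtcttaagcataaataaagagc
Rsad2: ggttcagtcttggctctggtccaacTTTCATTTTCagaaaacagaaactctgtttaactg
Igtp: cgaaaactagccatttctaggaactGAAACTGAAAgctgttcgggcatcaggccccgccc
Irgm2: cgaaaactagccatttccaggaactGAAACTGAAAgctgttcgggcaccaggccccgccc
Gbp3: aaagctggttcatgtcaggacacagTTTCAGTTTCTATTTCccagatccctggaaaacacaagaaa
The windows of Igtp and Irgm2, which encode related immunity GTPases, were identical at 58 of 60 bases, yet their ratios had opposite signs. Igtp read 1862 against 3597 on low-fat and 1583 against 2280.0 on high-fat and Irgm2 1342 against 870.0 on low-fat and 1067 against 699.9 on high-fat. Gbp2, a guanylate binding protein, read 90.0 against 394 on low-fat and 72.3 against 244 on high-fat, with a bound of -0.40 from its other probe set. Gbp3, which carries overlapping matches, read 254 against 257. These sequences are of the C57BL/6J reference, and the A/J sequence was not used here.

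Markers of T cells and intraepithelial lymphocytes were lower in A/J on low-fat, in 12 of 22 measured genes by at least 1.5-fold. Over all genes the share was 9.23%. In the list 1 gene was higher, Klrg1 (154 against 73.5), and the median was -0.69. Gzma, a killer protease, was 6.41-fold lower (810 against 5190 on low-fat and 907 against 3352 on high-fat). Its relative Gzmb was 4.39-fold lower (351 against 1542 on low-fat and 581 against 848 on high-fat). Ccl5, a lymphocyte chemokine, was 5.76-fold lower (743 against 4275 on low-fat and 1480.3 against 1871 on high-fat). The receptor subunit genes Klrd1 and Cd3d read 103 against 403 on low-fat and 141 against 255 on high-fat, and 167 against 443 on low-fat and 245 against 216 on high-fat. The C57BL/6J low-fat array was the highest of the 4 in these genes, and Cd3d was lower in C57BL/6J than in A/J on high-fat. Between the high-fat arrays the median was 0.08, and against the C57BL/6J high-fat array 0.02, while the A/J high-fat array against the C57BL/6J low-fat array gave -0.70. B cell and plasma cell markers had a median of 0.11 over 15 genes, with Cd79a, a B cell receptor subunit, 2.01-fold higher (606 against 301 on low-fat and 445 against 280.0 on high-fat). Macrophage, dendritic and mast cell markers had a median of -0.10, which turned to 0.08 without scaling. Among them Mcpt2, a protease of mucosal mast cells, was at least 3.81-fold higher (381 against 79.3 on low-fat and 348 against 119 on high-fat) and Fcer1g, an Fc receptor subunit, was 2.45-fold lower (212 against 518 on low-fat and 368 against 464 on high-fat).

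Antimicrobial and regenerating proteins were lower in A/J, in 11 of 18 measured genes by at least 1.5-fold, beside 9.23% of all genes. The list had 1 higher gene and a median of -0.83, or -0.32 with no filter on mean signal. On high-fat 6 were lower and 2 higher, with a median of -0.25. Markers of Paneth cells, which secrete many of these proteins, had a median of -0.79 over 5 measured genes, with 3 lower and 0 higher, and -0.21 on high-fat. The lists share members, among them the lower genes Itln1 and Pla2g2a. Of the other Paneth cell markers, Mmp7 read 629 against 1147 on low-fat, Lyz1 13812.5 against 15542.5 and Pnliprp2 1155 against 1070. On high-fat they read 1046 against 1206, 11670 against 13344 and 357 against 1812. Pancreatic enzymes were also far lower in A/J on high-fat, and whether the Pnliprp2 signal came from Paneth cells was not tested. The part of Paneth cells in the result was not tested. Reg3g, a lectin that kills gram-positive bacteria, was 3.03-fold lower (8314 against 25163 on low-fat and 8957 against 18314 on high-fat), and Reg2 read 602 against 7205 on low-fat and 222 against 9288 on high-fat. Nos2, the inducible nitric oxide synthase, and Duoxa2, the maturation factor of an oxidase that makes hydrogen peroxide, were below the floor in A/J on both diets. Nos2 read 20.1 against 539.7 on low-fat and 5.89 against 539.9 on high-fat, and Duoxa2 86.7 against 252 on low-fat and 3.92 against 312 on high-fat. Saa1, an acute phase apolipoprotein, was at least 4.30-fold lower (1.90 against 430.2 on low-fat and 7.01 against 116 on high-fat), and Noxo1, the organiser of an epithelial superoxide-generating oxidase, was 4.75-fold lower (366 against 1742 on low-fat and 427 against 835 on high-fat). The 1 higher gene was Defa31, of the alpha-defensins of Paneth cells, a family of near-identical copies that probes can fail to separate. It read 214 against 5.84 on low-fat and 17160.5 against 51.5 on high-fat, so most of its spread lay between the A/J arrays. Ccl20, which draws immune cells to the follicle-associated epithelium, was 2.16-fold lower on low-fat (482 against 1040.0 on low-fat and 203 against 2768 on high-fat) and 13.7-fold lower on high-fat. Goblet cell markers had a median of -0.22 over 18 genes, with Guca2a, guanylin, higher (9279 against 3509) and Spink4 lower (3713 against 8488) in A/J. Proliferation genes were lower in 11 of 32 cases by at least 1.5-fold and higher in 0. Their median was -0.33, or -0.15 without scaling and -0.36 with quantile normalization. On high-fat 2 were lower and 0 higher, with a median of -0.09. Among them Hmgb2, a chromatin protein of dividing cells, was 3.14-fold lower (429 against 1346 on low-fat and 724 against 892 on high-fat). Cytosolic ribosomal protein genes were lower in 8 of 35 cases and higher in 0, with a median of -0.44, and -0.11 on high-fat. Their low-fat median was -0.26 without scaling and -0.30 with quantile normalization.

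The MHC genes differed between copies and between probe sets of the same gene. The strains carry different MHC haplotypes, and class I genes are near-identical copies, so a probe set can read an allele or a neighbour. H2-K1, a classical class I gene, read 3074 against 21038 on low-fat and 2667 against 22298 on high-fat on its brightest probe set. Its other probe sets gave log2 ratios of -2.16, -0.02 and -1.62 beside -2.77. H2-D1 gave 0.47 on its brightest set (16271 against 11774), whereas other sets gave 5.25 (8987 against 237), 6.43 (8704 against 101) and a bound of 6.60 (9667 against 24.9). H2-T3, a nonclassical gene whose product is expressed on enterocytes, gave 2.33 (2685 against 532) and a bound of 4.48 (2224 against 95.6). H2-Bl (2953 against 533) and H2-T18 (1306 against 238) were also higher in A/J, and H2-Q2 was at least 6.75-fold lower (7.88 against 675). The peptide transporter subunit gene Tap1 was 2.78-fold lower (674 against 1871 on low-fat and 657 against 1299 on high-fat), while its partner Tap2 read 1511 against 1035 on low-fat and 1607 against 806 on high-fat. Beta-2 microglobulin, B2m, read 14336 against 20334. Of 10 measured class II genes, 1 passed 1.5-fold, H2-Ab1 (1331 against 2536 on low-fat and 1484 against 1624 on high-fat).

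The lowest ratios outside these lists belonged to genes of varied function. St3gal4, which adds sialic acid to glycans, read 151 against 17766 on low-fat and 145 against 15286 on high-fat, the largest difference of all measured genes on low-fat. Another sialyltransferase gene, St6galnac2, was also lower in A/J (157 against 373), and St3gal6 was higher (1193 against 480.0). Bst1, an ectoenzyme that makes cyclic ADP-ribose, was 10.6-fold lower (311 against 3301 on low-fat and 352 against 3021 on high-fat), with -2.24 from its other probe set beside -3.41. Slfn2 and Slfn4, adjacent Schlafen genes, read 236 against 2106 and 258 against 2172. Tifa, an adaptor of the response to bacterial sugars, was 5.98-fold lower (969.9 against 5798 on low-fat and 455 against 4382 on high-fat), and Mbl2, a mannose-binding lectin of complement, was 6.03-fold lower (293 against 1764 on low-fat and 90.5 against 489 on high-fat). Rpgrip1, known from photoreceptor cilia, was at least 11.0-fold lower (61.7 against 1098 on low-fat and 9.81 against 777 on high-fat). Pdk1, a pyruvate dehydrogenase kinase like Pdk4, was lower in A/J (128 against 617 on low-fat and 129 against 497 on high-fat), whereas Pdk4 was higher. For St3gal4, Bst1, Tifa, Mbl2, Rpgrip1 and Pdk1 both A/J arrays were below both C57BL/6J arrays.

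Among 8028 measured genes placed on chromosomes, 453 differed by 2-fold or more between the strains. Of these, 63 (13.9%) had a neighbouring measured gene that also passed 2-fold in the same direction, in 29 runs. The share under a random order of genes was not computed, so 13.9% cannot be read as an excess. Only 3 of the runs held 3 or more genes. The longest run held 5 genes, Trim21, Trim34a, Trim12a, Trim30a and Trim30d, all lower in A/J and all of the tripartite-motif family, which includes interferon-induced restriction factors. Trim34a read 79.9 against 835 on low-fat and 20.5 against 662 on high-fat, Trim12a 17.1 against 405 on low-fat and 1.68 against 313 on high-fat and Trim30d 242 against 1078 on low-fat and 137 against 710.1 on high-fat. Another run of 3 held Ly6d, Ly6m and Ly6g2, surface proteins of the Ly6 family, of which Ly6m read 102 against 464 on low-fat and 140.4 against 386 on high-fat. Runs higher in A/J included pairs of paralogs, such as Akr1c14 with Akr1c13, Slc5a4b with Slc5a4a and Aqp7 with Aqp3. Whether neighbouring copies share probes was not tested.

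A strain variant under the probes of one set would change that set and leave the gene's other sets as they were, so the other sets were compared. Of the 241 genes at least 2-fold higher, 82 had another measured probe set, of which 50 were at least 1.5-fold higher there too, 29 were within 1.5-fold and 3 were at least 1.5-fold lower. Of the 212 lower genes, 63 had another measured set, with 31 alike, 31 within 1.5-fold and 1 opposite. Sets that differed by at least 1 on the log2 scale were seen for 17 of the higher and 22 of the lower genes. Over all measured genes, 297 of 4313 pairs of the brightest set with any other set, from 2868 genes, differed by that much. The 2-fold genes were chosen on the ratio of the brightest set, which alone makes such differences more frequent. For them only the brightest other set was counted, so the shares cannot be set side by side. Scarb1 gave 4.03, 3.78 and 3.45, Cd36 gave 3.18 and 3.30, and Cap1, an actin regulator, gave 2.58 and 2.86. These genes were higher in A/J on every set. Rps9, a ribosomal protein gene, gave 0.17 on its brightest set and a bound of -3.43 on another, and Uqcr10, a subunit of respiratory complex III, gave -0.35 against -2.87 and a bound of -4.32. Prdx2, a peroxiredoxin, gave -0.14 and -2.42. For these 3 genes the dimmer sets gave ratios on high-fat of -3.40 for Rps9, -2.52 and -3.95 for Uqcr10 and -2.64 for Prdx2, of which all but -2.52 were bounds. Trmt1, a methyltransferase of transfer RNA, was at least 4.09-fold lower on its brightest set but gave -0.01 and -0.11 on others. For St3gal4, Bco1, Pck1 and Reg2 no other set of the gene was measured, so their ratios have no such check.

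**Figure D4:**
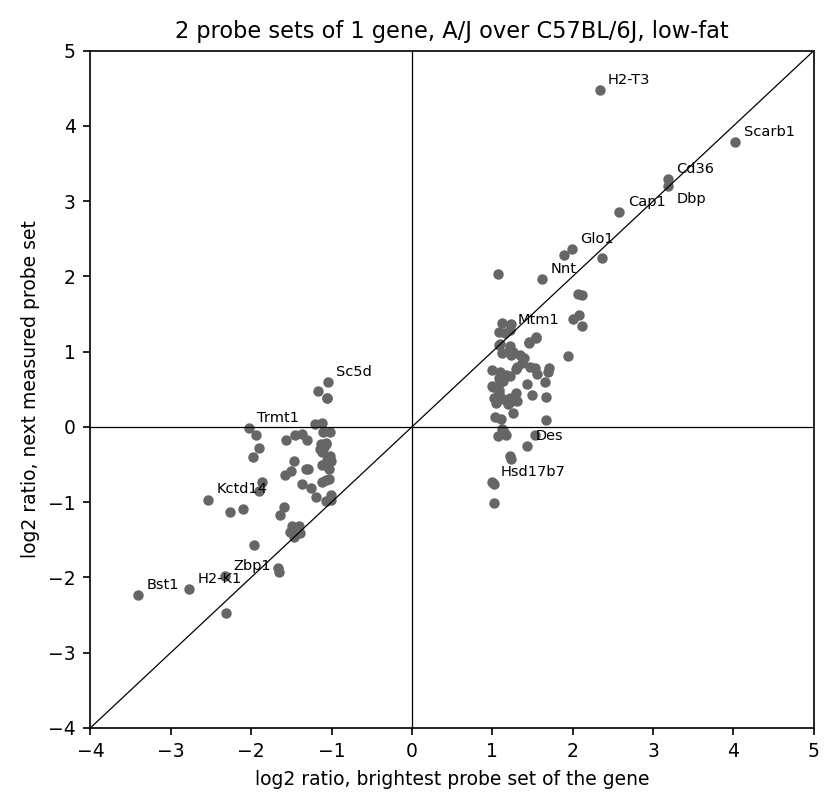
Log2 ratio of A/J over C57BL/6J on the low-fat arrays for 145 genes at least 2-fold apart, from the brightest probe set (horizontal) and the next measured set of the same gene (vertical), each point 1 gene. Scarb1, Cd36, Dbp and Nnt lie near the line of equality, while Trmt1, Des, Sc5d and Hsd17b7 lie near or across 0 on the vertical axis.

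The high-fat arrays gave the same strain comparison in other pools, with no array in common. Each gene was read on the same probe set on both diets, so a strain variant under its probes would repeat. A difference in hour or handling that went with strain would repeat too. Agreement between the diets cannot tell these apart from a difference in RNA level. On them 155 genes (1.93%) passed 2-fold upward in A/J and 191 (2.38%) downward. Of the 241 genes higher on low-fat, 153 (63.5%) passed 1.5-fold and 90 passed 2-fold in the same direction on high-fat, 85 were within 1.5-fold and 3 at least 1.5-fold lower. Of the 212 lower genes, 141 (66.5%) passed 1.5-fold and 97 passed 2-fold downward again, 71 were within 1.5-fold and 0 went the other way. Median log2 ratios were 1.27 on low-fat and 0.83 on high-fat for the higher genes, and -1.35 and -0.92 for the lower ones. The genes were chosen on the low-fat ratio, which alone makes the second value smaller. The 3 that reversed were Gkn2, a stomach mucosal protein, Ins2, insulin, and Kctd20. Gkn2 read 517 against 38.1 on low-fat and 39.2 against 3001 on high-fat, and Ins2 read 401 against 146 on low-fat and 14.0 against 275 on high-fat. Summed stomach markers were 3558 in A/J and 10481 in C57BL/6J on high-fat, and pancreatic enzymes moved the same way there. The part of these tissues in the reversals was not tested.

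**Figure D5:**
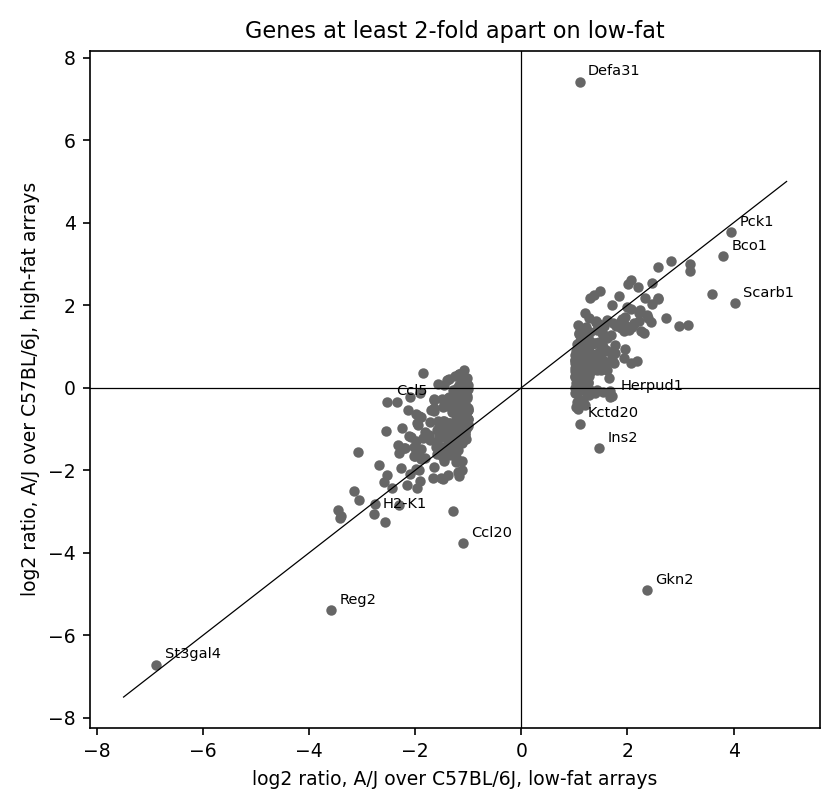
Log2 ratio of A/J over C57BL/6J on the high-fat arrays (vertical) against the same ratio on the low-fat arrays (horizontal) for the 453 genes at least 2-fold apart on low-fat, each point 1 gene, with the line of equality. Most points lie in the quadrants of equal sign, Gkn2, Ins2 and Kctd20 lie below 0 on high-fat while above 0 on low-fat, and Ccl5 and Herpud1 lie near 0 on high-fat.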

How the data were processed

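Intestinal mucosa of 4 groups of mice was hybridised to 4 arrays, 1 per group. Per the labels' protocols, the authors computed each deposited value, a linear hybridisation intensity per probe set, in Microarray Suite 5.0 with default settings, from the contrast of matched with mismatched probes. The 22690 probe sets include 64 controls, which served for the array checks alone. For the remaining 22626, the platform table pairs 20380 with a single gene, 691 with several and 1555 with no gene, and the single-gene sets were kept. Of these, 20351 matched the RefSeq table, which changed 0 symbols.

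The deposited intensities were multiplied by 2.72 (A/J low-fat), 3.08 (C57BL/6J low-fat), 2.80 (A/J high-fat) and 3.41 (C57BL/6J high-fat), which brought the mean trimmed by 2% at each end to 500. Signals were floored at 100 and put on the log2 scale. A gene is shown by its probe set of highest mean over the 4 arrays. No comparison was tested, since each group had 1 array. Scaling assumes like totals of RNA per array, and mismatch subtraction makes low signals unsteady, which the floor hides.

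The comparison and the 52 gene lists, written from general knowledge, were chosen with earlier results of these data known. Of 1190 listed genes, 989 were found and 827 measured, and some are on several lists. Genes were named by rule: the 20 highest and 20 lowest ratios above the floor, the 12 brightest bounds and the 15 leading genes of both diets each way, genes that reversed with diet, the 15 largest disagreements between probe sets, known strain variants, and list members at least 2-fold apart or among the 6 with the largest ratios of their list. Abcg5, Aqp8, B2m, Car1, Clock, Cxcl11, Fabp2, Fabp6, Fgf15, Gbp3, Gstm5, Hlf, Hmgcs1, Hoxb13, Hspa8, Igtp, Irgm2, Klrg1, Per1, Rbp2, Slc10a2, Stard4, Vil1, Vnn1 and the neighbours of named genes were named after their values were seen. Alternatives covered scaling, floor, pseudocount, choice of probe set, filter and arrays. Python 3.11.15 with numpy 2.4.6, pandas 2.3.3 and matplotlib 3.10.9 was used. The steps were run on simulated data with changes put only into bright genes, which does not cover ratios that are bounds.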

Additional observations from a re-analysis of the deposited data

Results flagged for a closer look

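Some named genes were at least 1.5-fold apart in opposite directions on the low-fat and the high-fat arrays. The difference between the diets was not tested, since each group had 1 array. On the log2 scale, Gkn2 was 2.37 on low-fat and -4.91 on high-fat, both bounds. Ins2 was 1.46 and -1.46, the second a bound, and Kctd20 was 1.10 and -0.87. Cuzd1, of pancreatic acinar cells, was 0.90 and -2.53, the second a bound, and the stomach peptide gene Tff1 was 0.63 and -1.86. The immunoglobulin genes were Ighm, at 0.75 and -0.59, and Iglv1, at -0.73 and 0.83. Ighm has 5 other measured probe sets, and they gave low-fat ratios from -2.38, a bound, to 0.10. Sums of pancreatic enzymes and stomach markers differed between the high-fat arrays in the direction of Ins2, Cuzd1, Gkn2 and Tff1, and their part in these reversals was not tested.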

How the results depend on the processing

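No paired analysis was possible because each group had 1 array. A value was taken as unmoved when it changed by under 1.5-fold. Without scaling, the genes past 2-fold upward in A/J went from 241 to 396, those past 1.5-fold upward from 874 to 1512 and those past 1.5-fold downward from 742 to 447. The high-fat arrays gave 155 genes past 2-fold upward. Over the 8 other alternatives that kept both low-fat arrays, the 2-fold counts ran from 170 to 288 higher and from 151 to 250 lower. Of 160 named genes at least 2-fold apart, 0 changed sign under the 9 alternatives that kept both low-fat arrays. For most of these alternatives that outcome was fixed in advance, so it shows little. A changed floor, a pseudocount or no filter cannot reverse such a ratio. Leaving out scaling moved the all-gene median only from 0.02 to 0.20. Some named genes had no value with no shared probe sets. No alternative put each gene's other probe set in place of the brightest, and on such sets Sc5d, Hsd17b7 and Des had the opposite sign. None of the 7 list medians past 1.5-fold changed sign under the 9 alternatives, but 6 of these medians fell within 1.5-fold in some of them. With no filter on mean signal the medians were 0.47 for retinoid handling, -0.32 for antimicrobial proteins, -0.23 for T cell markers, 0.00 for stomach markers and 0.40 for strain variants. With a floor of 200 they were -0.56 for antimicrobial proteins, -0.49 for Paneth cell markers, -0.23 for T cell markers and 0.00 for stomach markers. T cell markers also gave -0.51 without scaling and -0.57 with a pseudocount of 50, and stomach markers 0.31 with no shared probe sets. Under the 3 alternatives with high-fat arrays, 22 of the 160 named genes changed sign.

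With the C57BL/6J high-fat array in place of the low-fat one, strain and diet differ together. The log2 ratios then were -2.54 for Gkn2, -0.24 for Pdk4, -0.0633 for Aldh1a1, -0.75 for Aldh1a7, -0.19 for Acaa1b, -1.51 for Me1, -0.59 for Ces1f, -0.0245 for Ugt2b5, -0.10 for Ces2a, 0.25 for Ifit2, 0.0131 for Mx2 and -0.14 for Idh1. List medians turned to 0.0192 for T cell and intraepithelial lymphocyte markers and -1.01 for stomach epithelium markers. With the A/J high-fat array in place of the low-fat one, the ratios were -0.54 for Ins2, -0.21 for Kctd20 and 0.99 for H2-Q10. With the high-fat arrays of both strains they were -4.91 for Gkn2, -1.46 for Ins2, -0.87 for Kctd20, 0.0543 for Pla2g2a, 0.43 for Pyy, 0.18 for Cd3d, 0.21 for Lat, -0.35 for Fabp4, -0.20 for Herpud1 and -0.13 for Rgs5. List medians were 0.0754 for T cell and intraepithelial lymphocyte markers and -1.86 for stomach epithelium markers. The cause of these changes was not tested. With 1 pool of 2 mice a group, the spread between mice is not in these data, and the ratios of Gkn2 between the high-fat arrays and of Ins2 with the A/J high-fat array are bounds.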

Other observations

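In the lists of endothelial and smooth muscle markers, single genes were higher in A/J on low-fat. Of all genes, 10.9% passed 1.5-fold upward, so counts this small say little of these tissues. Of 9 measured endothelial markers, 2 passed 1.5-fold upward and 0 downward, with a median log2 ratio of 0.33, and 0.04 on high-fat. Tek, the angiopoietin receptor of endothelial cells, was at least 3.04-fold higher (304 against 68.0 on low-fat and 187 against 77.1 on high-fat). Plvap, the other, read 957 against 561 on low-fat but 640 against 915 on high-fat. Of 11 measured smooth muscle markers, 3 passed 1.5-fold upward and 0 downward, with a median of 0.45, and 0.11 on high-fat. Des, the muscle intermediate filament, was at least 2.70-fold higher (269.9 against 69.5 on low-fat and 262 against 28.0 on high-fat), but its other probe set gave -0.26 beside 1.43. Acta2 read 1288.5 against 816 on low-fat but 792 against 918 on high-fat. The sums over smooth muscle markers were 9918 in A/J and 8247 in C57BL/6J on low-fat.

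Single genes of other functions were also far apart. Nt5e, the ectoenzyme that makes adenosine from AMP, was at least 4.99-fold higher in A/J (499 against 29.5 on low-fat and 632 against 252 on high-fat). Slc20a1, a phosphate carrier, was 3.30-fold higher (841 against 255 on low-fat and 1295 against 434 on high-fat). Me1, malic enzyme, was 2.12-fold higher (381 against 179.9 on low-fat and 2712 against 1087 on high-fat), and both strains had higher signals on high-fat. Trpm5, a cation channel of tuft cells, was 2.93-fold lower (138 against 405 on low-fat and 89.1 against 202 on high-fat), while the median of 5 measured tuft cell markers was 0.17. Pyy, the gene of a distal gut hormone, was 2.13-fold lower on low-fat (250.1 against 532 on low-fat and 475 against 353 on high-fat), and the A/J array was the higher one on high-fat.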
